A study of Mus musculus with 4 samples.

Results

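The mitochondrial carriers were examined in RNA sequencing of mouse skeletal progenitors labelled as lacking Ecsit (cKO) or as wild type (WT). They were taken as every protein-coding gene of the deposited table whose symbol is Slc25a followed by a number, with the uncoupling proteins Ucp1, Ucp2 and Ucp3 and both subunits of the pyruvate carrier, Mpc1 and Mpc2. The rule found 52 genes among 55487, of which 47 carry an Slc25a symbol and 5 are the further genes. It used names and gene types alone, with no measured value.

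The study asked what loss of Ecsit, an assembly factor of respiratory complex I, does to mitochondrial metabolism in cells that build bone. Skeletal progenitors were sorted from hindlimbs of mice at postnatal day 1 by flow cytometry: GFP from the Prx1-cre reporter was required, and cells with CD45 (blood), Ter119 (red cell) or Tie2 (endothelium) on their surface were left out. Polyadenylated RNA was sequenced without culture or treatment, in 2 libraries labelled cKO (numbered 2 and 3) and 2 labelled WT (also numbered 2 and 3). By the study's methods cKO mice carried Ecsit fl/fl, Prx1-cre and the Rosa26 mTmG reporter, and WT mice carried Prx1-cre and the reporter with intact Ecsit. Prx1-cre acts in limb mesenchyme from embryonic life, so Ecsit would be absent throughout limb growth, and it is active in many mesenchymal cells beside progenitors. The labels do not say whether libraries of 1 label came from separate litters or pooled animals, so every p-value measures the spread between these libraries only.

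The deleted gene does not bear out the labels. Ecsit had 33.6 and 30.2 CPM (read counts scaled to a common library size by TMM) in the libraries labelled cKO (2 and 3, the order used throughout), against 12.6 and 18.9 CPM in those labelled WT (2 and 3). Its log2 fold change, cKO over WT, was 1.02 (SE 0.25, adjusted p = 0.0245, edgeR quasi-likelihood test with Benjamini-Hochberg adjustment). Over the 18 settings tried this fold change ran from 0.71 to 1.34, but it did not pass in all of them. Scaled by total counts instead of TMM it was 0.74 (adjusted p = 0.0534), and with no filter on low counts 1.06 (adjusted p = 0.0557). Without cKO 2 and without cKO 3 it stood at 0.95 and 1.08. The counts cover the whole gene, so transcripts that lack the deleted exons would be included. In addition, the genotype field of the samples titled WT names EcsitPrx1;Rosa26mTmG, and that of the samples titled cKO names Ecsitfl/fl;Rosa26mTmG. Groups follow the titles here, and every direction would turn round if the titles were exchanged.

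Mitochondrial carriers of the Slc25 family sit mostly in the inner mitochondrial membrane and pass nucleotides, phosphate, carboxylic acids, amino acids, cofactors and iron between the cytosol and the matrix. A typical member is built from repeated units of paired membrane helices, and it swaps one substrate for another. Uncoupling proteins belong to the same family, whereas the pyruvate carrier belongs to a separate family and works as a complex of both of its subunits.

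Slc25a4 (Ant1), Slc25a5 (Ant2) and Slc25a31 (Ant4) are the mouse ADP/ATP carriers, which export ATP made in the matrix. They are shown here because Slc25a4 and Slc25a5 had the highest levels of all carriers per kilobase of exon in these cells. Reads of such similar genes also have to be told apart. Each line is a stretch of 60 coding bases from the GENCODE vM21 transcripts (GRCm38), with the 18 bases in capitals encoding the run of arginine and methionine residues that is the signature of ADP/ATP carriers. The genes lie at chr8:46206797-46211284 on the minus strand, chrX:36795651-36798807 on the plus strand and chr3:40708855-40726096 on the plus strand.
Slc25a4: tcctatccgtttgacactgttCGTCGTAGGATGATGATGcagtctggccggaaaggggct
Slc25a5: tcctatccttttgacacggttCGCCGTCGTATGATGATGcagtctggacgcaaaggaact
Slc25a31: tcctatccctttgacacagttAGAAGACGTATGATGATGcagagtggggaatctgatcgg
Within the stretch Slc25a5 differs from Slc25a4 at 9 bases and Slc25a31 differs from Slc25a4 at 22. Over the whole coding sequence Slc25a4 and Slc25a5 are 77.4% identical across 894 aligned bases. The longest run of bases they share is 20, so coding reads longer than that can be assigned to 1 of the pair. The processed pseudogene Slc25a5-ps is closer to Slc25a5, 92.8% identical over 875 aligned bases with a shared run of 97. It had 6 and 7 counts in the libraries labelled cKO, against 4 and 3 counts in those labelled WT.

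Of the 52 carriers 42 had enough counts to be tested, and 12 of these rose and 3 fell in the libraries labelled cKO. Among the 12 that rose were Slc25a47, Slc25a38, Mpc1, Slc25a39, Slc25a29, Slc25a11, Slc25a4, Slc25a5, Slc25a1, Slc25a10 and Ucp2, and the 3 that fell were Slc25a27, Slc25a37 and Slc25a36. They make up 28.6% and 7.14% of the carriers tested, where 14.1% of all 16157 genes tested were called higher and 14.3% were called lower at the same threshold (adjusted p under 0.05). The median log2 fold change of the carriers was 0.24, against -0.02 over all genes tested. In 22 carriers both libraries labelled cKO stood above both labelled WT, in 12 they stood below, and in 8 the labels overlapped. Among all genes tested 36.3% stood above and 36.2% below in this way. DESeq2 called the same 15 carriers and, in addition, Mpc2.

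**Figure D1:**
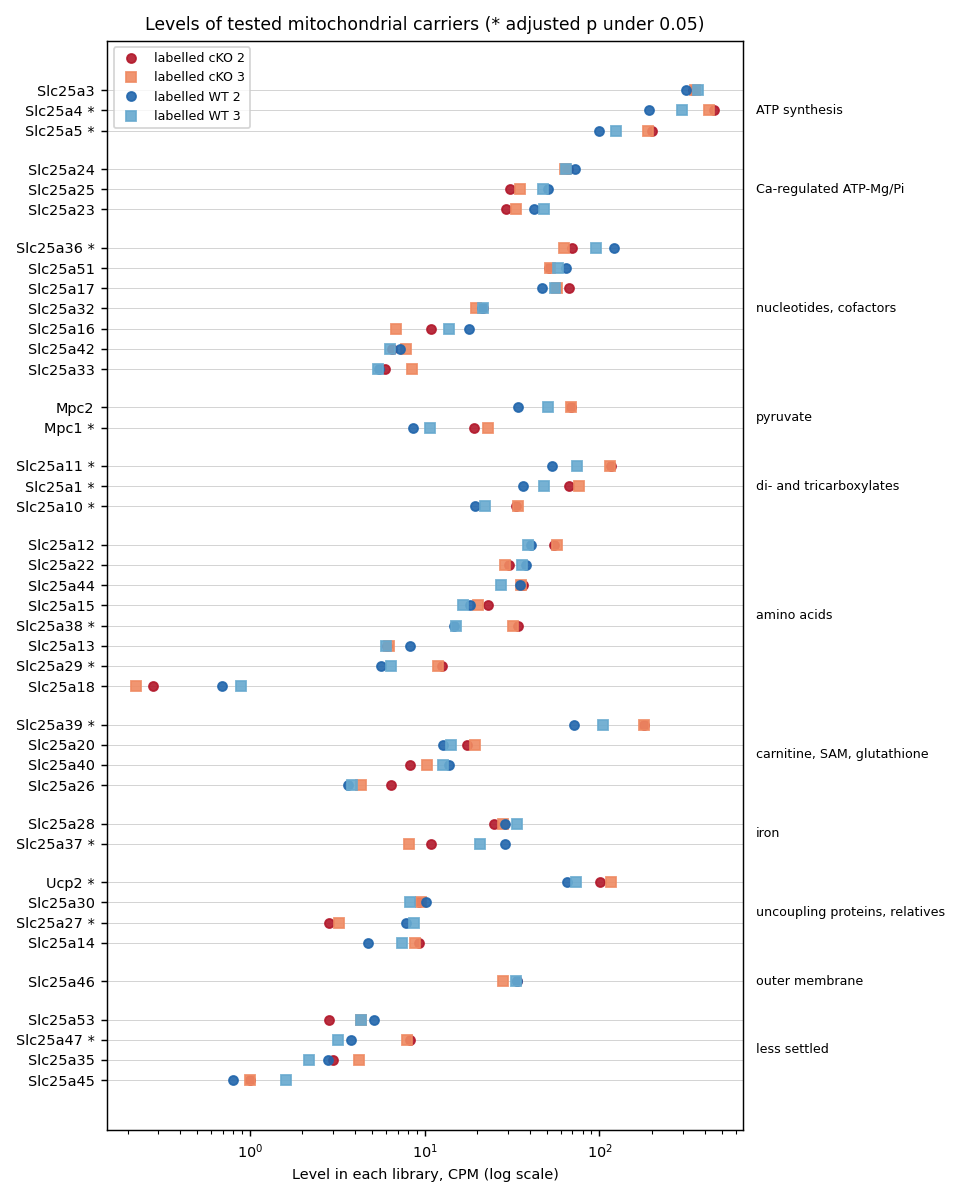
Level of tested carriers in each library, in CPM on a log scale, with libraries labelled cKO in red (circle 2, square 3) and libraries labelled WT in blue (circle 2, square 3), grouped by what they carry. Slc25a4, Slc25a3 and Slc25a5 have the highest CPM, and an asterisk marks the called carriers, whose labels do not overlap.

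These calls depended on each library labelled cKO. Without cKO 2, 1 carrier was called higher and 1 lower (Slc25a37), and without cKO 3 again 1 was called higher and 1 lower (Slc25a27). Without WT 2 there were 15 higher and 5 lower, and without WT 3 there were 17 higher and 7 lower. All 15 called carriers kept their sign in each of these fits, and several lost the call at a fold of similar size. Mpc1 stood at 1.25 without cKO 2 (adjusted p = 0.0602) and at 0.96 without cKO 3 (adjusted p = 0.160), beside 1.12 with all libraries. Slc25a39 stood at 1.04 without cKO 2 (adjusted p = 0.137) and at 1.03 without cKO 3 (adjusted p = 0.134), beside 1.04. Scaling moved the balance of calls as well. When libraries were scaled by their total counts instead of TMM, the median of all genes tested moved to -0.30 and that of the carriers to -0.04, and 5 carriers were called higher and 8 lower, in place of 12 and 3. The share of all genes called was not computed for this scaling or for the fits without 1 library. Whether these counts are particular to the carriers therefore cannot be read from them.

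Gene length ran with the fold changes. Across the 42 carriers, which are not independent of each other, log2 fold change and exon length had a Spearman's rho of -0.48, beside -0.42 across 16143 genes. The called carriers that rose had a median exon length of 2676 bases, those that fell 6021 bases, and those not called 4844 bases. WT 3 stood above WT 2 in 11 of the 12 carriers that rose, with a median log2 difference of 0.28. Whether this difference between libraries of 1 label follows exon length was not tested. Of all genes called higher, 86.9% also stood above in WT 3. With the trend on exon length removed in each library, 14 carriers were called higher (33.3%, where 17.0% of all genes were) and 3 lower (7.14%, where 12.3% of all genes were), at a median of 0.15 against 0.05 over all genes. Of the 15 called carriers 14 remained called. Slc25a36 was lost, and Mpc2, Slc25a12 and, in the lower direction, Slc25a18 were gained. With the longest transcript as the length instead, Slc25a36 was lost again (-0.35, adjusted p = 0.0920). So were Slc25a1 (0.43, adjusted p = 0.0511), Slc25a10 (0.46, adjusted p = 0.0542) and Slc25a5 (0.39, adjusted p = 0.0679). Gained were Mpc2, Slc25a12 and, in the lower direction, Slc25a16, Slc25a18, Slc25a23 and Slc25a25. Among the carriers called with TMM, with DESeq2, with library totals and with both length corrections were Slc25a47, Slc25a38, Mpc1 and Slc25a39, higher in the libraries labelled cKO, and Slc25a37 and Slc25a27, lower in them.

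**Figure D2:**
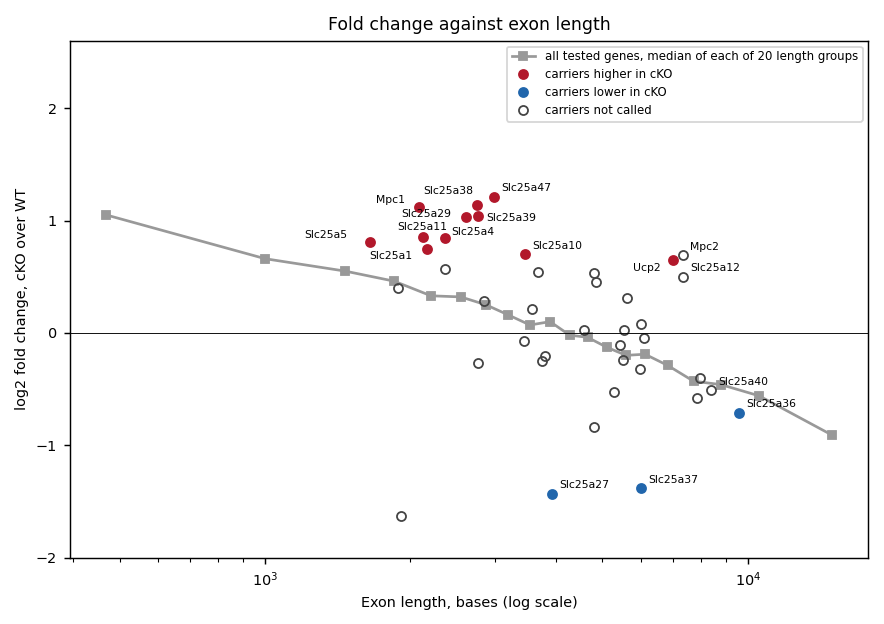
Log2 fold change, cKO over WT, against exon length (log scale) for tested carriers, coloured by call, with the median of all tested genes in groups of equal size by length in grey. Slc25a47 at 1.21 and Slc25a27 and Slc25a37 at -1.43 and -1.38 lie far from the grey line, while Slc25a36 at -0.71 lies close to it.

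Per kilobase of exon, averaged over the 4 libraries, Slc25a4 had the highest level at 145 CPM per kb, followed by Slc25a5 at 93.3, the phosphate carrier Slc25a3 at 62.0, Slc25a39 at 48.6, Slc25a11 at 42.4 and Slc25a1 at 26.4 CPM per kb. Next came Slc25a17 at 19.9, Slc25a24 at 19.4, Ucp2 at 12.7 and Slc25a51 at 10.2 CPM per kb. Slc25a17 and Slc25a24, next to each other in this order, differ by less than their spread over libraries. With the longest transcript as the length, 9 of these 10 carriers were again among the 10 highest. Together the carriers held 0.205% and 0.211% of the counts in libraries labelled cKO, against 0.183% and 0.209% in those labelled WT (exact two-sided permutation p = 0.667). Their summed level was 2304 and 2283 CPM in the libraries labelled cKO, against 1672 and 1905 CPM in those labelled WT (exact permutation p = 0.333, the smallest that 2 against 2 libraries allow). Fewer cells of a type and less RNA per cell cannot be told apart in such bulk libraries. Transcripts of mitochondrial DNA made up 5.11% and 4.18% of the counts in libraries labelled cKO, against 2.82% and 2.95% in those labelled WT.

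Carriers that serve ATP synthesis split between the ADP/ATP carriers, which rose, and the phosphate carrier, which was not called. Slc25a4, the ADP/ATP carrier typical of heart and skeletal muscle, had 452 and 424 CPM in the libraries labelled cKO, against 191 and 297 CPM in those labelled WT. Its log2 fold change was 0.84 (SE 0.26, adjusted p = 0.0459). The labels did not overlap, but WT 3 lay nearer to cKO than WT 2 did. Slc25a5, the ADP/ATP carrier of proliferating cells, had 200.2 and 190.4 CPM in the libraries labelled cKO, against 98.8 and 125 CPM in those labelled WT, a log2 fold change of 0.81 (SE 0.21, adjusted p = 0.0283). With library totals neither was called (0.57 with adjusted p = 0.126 for Slc25a4, and 0.53 with adjusted p = 0.0848 for Slc25a5). With a correction on longest transcript length Slc25a4 passed (0.60, adjusted p = 0.0366) and Slc25a5 did not (0.39, adjusted p = 0.0679). Slc25a3, which brings in the phosphate that ATP synthase uses, had 340.5 and 354 CPM in the libraries labelled cKO, against 314 and 367 CPM in those labelled WT. Its labels overlapped, and its log2 fold change was 0.03 (SE 0.21, adjusted p = 0.933). Slc25a31, known from testis, had 1 and 5 counts in the libraries labelled cKO, against 7 and 3 counts in those labelled WT, and was not tested.

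Muscle markers moved with Slc25a4. The summed level of 7 muscle genes (Myod1, Myog, Acta1, Ckm, Myh3, Des and Tnnt3) was 159 and 155 CPM in the libraries labelled cKO, against 31.9 and 46.9 CPM in those labelled WT, and 5 of the 7 rose. Acta1, skeletal muscle actin, had 59.5 and 66.1 CPM in the libraries labelled cKO, against 7.08 and 7.24 CPM in those labelled WT, while Myod1 stayed at or below 1.28 CPM and Myh3 at or below 1.74 CPM in every library. Their part in the level of Slc25a4 was not tested.

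The calcium-regulated carriers, which exchange ATP-Mg for phosphate and so set the adenine nucleotide pool of the matrix, held no called member. With edgeR 2 of the 3 tested had an unadjusted p under 0.05, and DESeq2 called none. Slc25a24, the most abundant per kilobase, had 66.4 and 63.4 CPM in the libraries labelled cKO, against 72.3 and 64.2 CPM in those labelled WT, with overlapping labels (log2 fold change -0.07, adjusted p = 0.782). Slc25a25 had 30.6 and 35.1 CPM in the libraries labelled cKO, against 50.5 and 47.4 CPM in those labelled WT. Its labels did not overlap, and its log2 fold change of -0.58 had an adjusted p of 0.0607. Slc25a23 was similar at -0.53 (adjusted p = 0.0818), and with library totals both passed (adjusted p = 0.0203 for Slc25a25 and 0.0251 for Slc25a23). Slc25a41, the member that lacks the calcium-binding part, had at most 12 counts in any library and was not tested.

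Among the carriers of nucleotides and cofactors Slc25a36 fell. This carrier of pyrimidine nucleotides had 69.8 and 62.3 CPM in the libraries labelled cKO, against 120.5 and 95.8 CPM in those labelled WT. Its labels did not overlap, and it fell by 0.71 on the log2 scale (SE 0.20, adjusted p = 0.0371). At 9594 bases it has the longest exons of the called carriers, and with the length correction its log2 fold change was -0.21 (adjusted p = 0.339). Its relative Slc25a33, also a pyrimidine nucleotide carrier, had 5.96 and 8.42 CPM in the libraries labelled cKO, against 5.49 and 5.42 CPM in those labelled WT (log2 fold change 0.40, adjusted p = 0.314). Slc25a17, the peroxisomal carrier of coenzyme A and related cofactors, was the most abundant of this set per kilobase, with 67.1 and 56.8 CPM in the libraries labelled cKO, against 46.7 and 55.7 CPM in those labelled WT, and was not called. The NAD carrier Slc25a51, the folate carrier Slc25a32 and the coenzyme A carrier Slc25a42 had log2 fold changes of -0.24, -0.05 and 0.08, none called. Slc25a16, linked to coenzyme A import, stood at -0.84 (adjusted p = 0.0629).

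The pyruvate carrier had higher levels of both subunits in the libraries labelled cKO. Mpc1 had 19.1 and 23.0 CPM there, against 8.63 and 10.8 CPM in those labelled WT, and rose by 1.12 on the log2 scale (SE 0.24, adjusted p = 0.0187). Mpc2 had 68.3 and 69.1 CPM in the libraries labelled cKO, against 34.1 and 50.8 CPM in those labelled WT, a log2 fold change of 0.69 that missed the threshold (SE 0.23, adjusted p = 0.0574) and passed it with the length correction (0.99, adjusted p = 0.0196) and with DESeq2 (adjusted p = 0.0402). The labels did not overlap for either subunit. The count of Mpc1 is uncertain, because the processed pseudogene Mpc1-ps is 94.2% identical to its coding sequence over 311 aligned bases and shares an unbroken run of 258 bases with it. Mpc1-ps had 99 and 101 counts in the libraries labelled cKO, against 39 and 64 counts in those labelled WT, beside 343 and 410 counts of Mpc1 itself in the libraries labelled cKO and 173 and 219 in those labelled WT. Its log2 fold change was 1.13 (adjusted p = 0.0408).

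All 3 tested carriers of dicarboxylates, tricarboxylates and oxoacids rose. Slc25a11, which exchanges malate for oxoglutarate in the malate-aspartate shuttle, had 117 and 115 CPM in the libraries labelled cKO, against 53.8 and 74.4 CPM in those labelled WT (log2 fold change 0.85, SE 0.22, adjusted p = 0.0272). Slc25a1, which exports the citrate used for fatty acid synthesis, had 67.2 and 76.0 CPM in the libraries labelled cKO, against 36.7 and 48.4 CPM in those labelled WT (0.75, SE 0.22, adjusted p = 0.0367). Slc25a10, which exchanges malate or succinate for phosphate, had 33.3 and 34.2 CPM in the libraries labelled cKO, against 19.4 and 22.2 CPM in those labelled WT (0.70, SE 0.20, adjusted p = 0.0381). In none of the 3 did the labels overlap. Scaled by library totals none of them passed, with log2 fold changes of 0.58, 0.48 and 0.43. With a correction on longest transcript length Slc25a11 passed (0.55, adjusted p = 0.0220). Slc25a1 (0.43, adjusted p = 0.0511) and Slc25a10 (0.46, adjusted p = 0.0542) did not. The exons of Slc25a11 overlap those of Rnf167 on the opposite strand over 189 bases, 8.9% of its exon length, and reads of such a stretch cannot be assigned without strand. Slc25a21, which carries oxoadipate, had at most 6 counts in any library and was not tested.

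Among the amino acid carriers 2 of 8 tested rose. Slc25a38, which imports the glycine used in the first step of heme synthesis, had 34.0 and 32.0 CPM in the libraries labelled cKO, against 14.8 and 15.2 CPM in those labelled WT. Libraries of 1 label lay close together, and the log2 fold change was 1.14 (SE 0.20, adjusted p = 0.0149). Slc25a29, a carrier of basic amino acids, had 12.6 and 12.0 CPM in the libraries labelled cKO, against 5.64 and 6.40 CPM in those labelled WT, and its log2 fold change was 1.03 (SE 0.25, adjusted p = 0.0239). Slc25a15, the ornithine carrier of the urea cycle, had 22.9 and 20.2 CPM in the libraries labelled cKO, against 18.2 and 16.6 CPM in those labelled WT (0.31, adjusted p = 0.290). Slc25a2, a second ornithine carrier, had at most 6 counts in any library.

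Aspartate and glutamate are exchanged by Slc25a12 (aralar) and Slc25a13 (citrin), the other carriers of the malate-aspartate shuttle. Slc25a12 had 54.6 and 57.4 CPM in the libraries labelled cKO, against 40.5 and 38.9 CPM in those labelled WT. The labels did not overlap, and its log2 fold change was 0.50 (adjusted p = 0.0801), or 0.82 (adjusted p = 0.00934) with the length correction. Slc25a13 had 6.12 and 6.23 CPM in the libraries labelled cKO, against 8.28 and 6.01 CPM in those labelled WT, with overlapping labels. The branched-chain amino acid carrier Slc25a44 had 36.6 and 35.4 CPM in the libraries labelled cKO, against 35.2 and 27.2 CPM in those labelled WT (0.21, adjusted p = 0.483). It had the highest level of the set per kilobase of exon (9.39 CPM per kb, against 8.74 for Slc25a38). With the longest transcript as the length Slc25a38 stood higher (13.4 against 9.39 CPM per kb). Of the glutamate carriers, Slc25a22 stood at -0.32 (adjusted p = 0.236), and Slc25a18, with 5 and 4 counts in the libraries labelled cKO, against 14 and 18 counts in those labelled WT, stood at -1.63 (adjusted p = 0.0657).

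Slc25a39, which imports glutathione into the matrix, had 181 and 179 CPM in the libraries labelled cKO, against 71.3 and 104 CPM in those labelled WT. Both libraries labelled cKO stood above both labelled WT, with a log2 fold change of 1.04 (SE 0.23, adjusted p = 0.0201) that was 0.86 with the length correction and 0.76 with library totals. Its relative Slc25a40, linked to glutathione as well, moved the other way in level, with 8.24 and 10.3 CPM in the libraries labelled cKO, against 13.7 and 12.7 CPM in those labelled WT (log2 fold change -0.51, adjusted p = 0.146). Slc25a40 has much longer exons, 8386 bases against 2756 for Slc25a39, and with the length correction its value was -0.10. Slc25a20, which carries acylcarnitines for fatty acid oxidation, and Slc25a26, which carries S-adenosylmethionine, stood at 0.45 and 0.53, neither called.

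Iron is brought into the matrix by the mitoferrins. Slc25a37 (mitoferrin 1), which is prominent in developing red cells, had 10.9 and 8.19 CPM in the libraries labelled cKO, against 28.7 and 20.8 CPM in those labelled WT. It fell by 1.38 on the log2 scale (SE 0.26, adjusted p = 0.0159), the labels did not overlap, and its values were -1.17 with the length correction and -1.66 with library totals. Slc25a28 (mitoferrin 2), the form of most other tissues, had 24.9 and 28.1 CPM in the libraries labelled cKO, against 29.0 and 33.9 CPM in those labelled WT (-0.25, adjusted p = 0.387). Fech, which puts iron into heme, stood at 0.43 on the log2 scale (adjusted p = 0.146).

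Erythroid transcripts moved against Slc25a37 and with Slc25a38. The summed level of 6 erythroid genes (Hba-a1, Hba-a2, Hbb-bs, Hbb-bt, Alas2 and Slc4a1) was 2018 and 1914 CPM in the libraries labelled cKO, against 683 and 604 CPM in those labelled WT, and 5 of the 6 rose. Slc4a1, the anion exchanger of the red cell membrane, was low, at 1.11 and 0.898 CPM in the libraries labelled cKO, against 2.05 and 0.492 CPM in those labelled WT. Their part in the levels of Slc25a37, Slc25a38 and Slc25a39 was not tested.

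The uncoupling proteins and their relatives moved in both directions. Ucp2, the uncoupling protein found in many tissues, had 100.5 and 116 CPM in the libraries labelled cKO, against 64.9 and 73.3 CPM in those labelled WT. It rose by 0.65 on the log2 scale (SE 0.19, adjusted p = 0.0414), by 0.93 with the length correction, and was not called with library totals (0.38, adjusted p = 0.178). Slc25a27 (Ucp4), known mainly from brain, had 2.84 and 3.25 CPM in the libraries labelled cKO, against 7.78 and 8.66 CPM in those labelled WT. It fell by 1.43 on the log2 scale (SE 0.28, adjusted p = 0.0167), with libraries of 1 label close together, and its value was -1.48 with the length correction and -1.70 with library totals. Slc25a14 (Ucp5) stood at 0.57 (adjusted p = 0.172) and Slc25a30 at 0.03 (adjusted p = 0.934).

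Ucp1, the heat-making uncoupling protein of brown fat, had 1 and 0 counts in the libraries labelled cKO, against 8 and 3 counts in those labelled WT, and Ucp3, known from muscle, had 5 and 2 counts against 5 and 4. Neither was tested. Fat markers were low. The summed level of Adipoq, Plin1, Cidea, Fabp4 and Pparg was 39.8 and 20.3 CPM in the libraries labelled cKO, against 9.08 and 7.93 CPM in those labelled WT, and all 3 that could be tested rose. Cidea, typical of brown fat, was at or below 0.299 CPM in every library.

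Slc25a47, which is known from liver and whose substrate is less settled, had 8.29 and 7.91 CPM in the libraries labelled cKO, against 3.79 and 3.20 CPM in those labelled WT. The labels did not overlap, and its log2 fold change was 1.21 (SE 0.28, adjusted p = 0.0209), or 1.04 with the length correction. It lies beside Slc25a29, which rose by nearly as much. With library totals Slc25a47 passed (0.94, adjusted p = 0.0369) and Slc25a29 did not (0.75, adjusted p = 0.0523). In GENCODE vM21 the genes point away from each other, with Slc25a29 at chr12:108825873-108835883 on the minus strand and Slc25a47 at chr12:108836046-108856815 on the plus strand, and 162 bases lie between them. RefSeq places the start of Slc25a47 15083 bases further into the gene, so an upstream transcript that begins beside Slc25a29 is part of the counted model only in GENCODE. How many of its counts fall in those upstream exons cannot be read from a table of gene totals.

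The sequence between these neighbours is shown because the pair rose together. It is the RefSeq promoter window of Slc25a29 (250 bases before to 50 bases after its start, GRCm38.p6, chr12:108835827-108836126, minus strand), with the 162 bases between the annotated GENCODE starts in capitals.
Slc25a29 promoter: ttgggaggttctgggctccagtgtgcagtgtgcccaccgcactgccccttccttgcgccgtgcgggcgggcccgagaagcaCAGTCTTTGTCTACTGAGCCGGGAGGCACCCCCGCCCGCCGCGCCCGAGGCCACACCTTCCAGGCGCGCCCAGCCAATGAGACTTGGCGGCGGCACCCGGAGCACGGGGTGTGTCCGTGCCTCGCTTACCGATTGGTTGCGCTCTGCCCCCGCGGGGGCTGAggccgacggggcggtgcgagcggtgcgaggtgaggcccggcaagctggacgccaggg
The letters CCAAT, searched on both strands, occur 2 times in this window, both within the capitals, and 37.9% of 27025 RefSeq promoter windows of the same length hold them at least once. In each of the other 4 pairs of neighbouring carriers 1 gene had too few counts to be tested. Ucp2 rose beside Ucp3, 6904 bases away, and Slc25a5 rose beside Slc25a43, 18448 bases away, which had at most 6 counts in any library. Slc25a23 (beside Slc25a41, 2056 bases away) and Slc25a24 (beside Slc25a54, 6461 bases away) were not called.

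The remaining members had low or similar levels. Slc25a46, an outer membrane member that acts in mitochondrial shape, had 33.7 and 28.2 CPM in the libraries labelled cKO, against 33.8 and 33.2 CPM in those labelled WT (log2 fold change -0.11, adjusted p = 0.691). Slc25a35, Slc25a45 and Slc25a53, of less settled substrate, had log2 fold changes of 0.54, -0.27 and -0.40, none called, and 31.3% of the exon length of Slc25a35 overlaps Rangrf on the opposite strand. The 10 carriers not tested were Slc25a2, Slc25a21, Slc25a31, Slc25a34, Slc25a41, Slc25a43, Slc25a48, Slc25a54, Ucp1 and Ucp3, with at most 32 counts over all libraries, and Slc25a54 had no count in any. Each of them could be present below what this depth, 18266573 to 20152872 counts a library, can show.

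**Figure D3:**
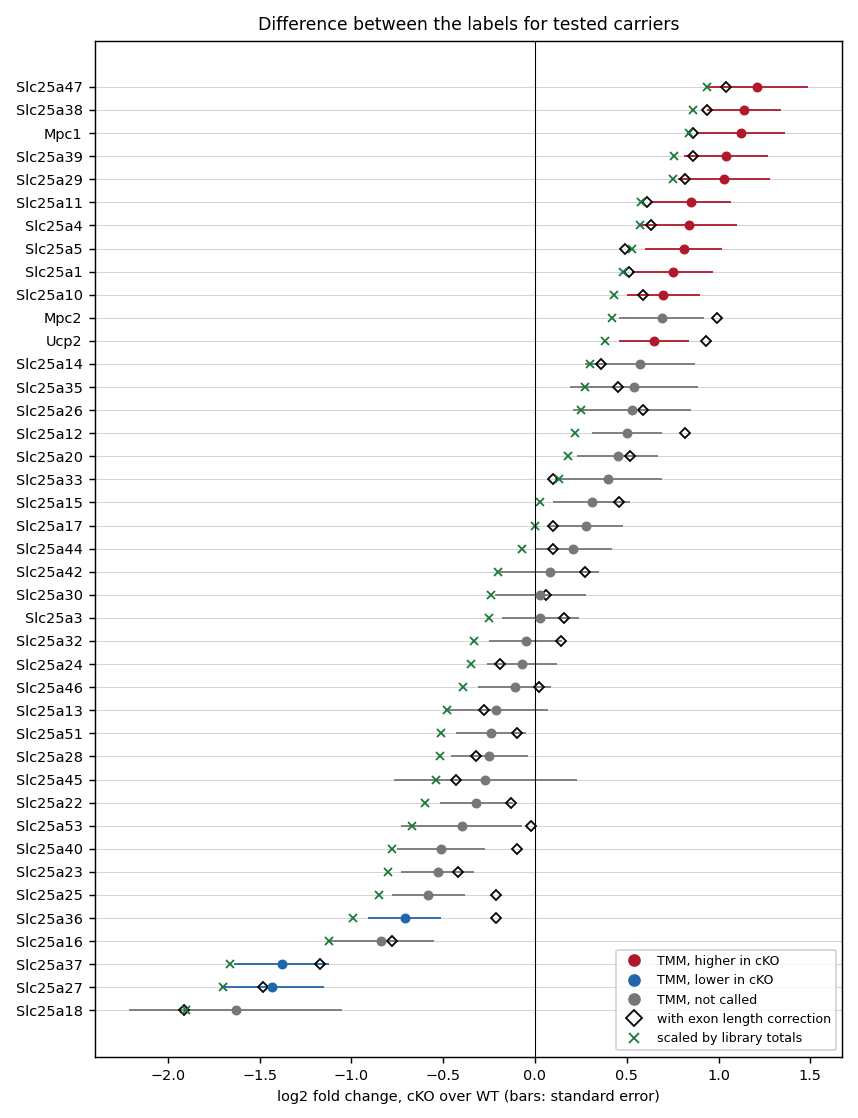
Log2 fold change, cKO over WT, of tested carriers with its standard error (circles, red higher, blue lower, grey not called), with the value after exon length correction (diamonds) and after scaling by library totals (crosses). Slc25a47 (1.21) is at the top and Slc25a18 (-1.63, with at most 18 counts in any library) at the bottom, and library totals shift every carrier shown to the left.

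The balance within pairs of related carriers was read as the share of their counts taken by 1 gene. The 8 pairs were chosen after their values were seen, so the shares are a description. Each difference has an exact permutation p of at least 0.333, the smallest that the design allows, and the intervals cover counting error only. Slc25a37 took 30.4% and 22.6% of the counts of both mitoferrins in the libraries labelled cKO, against 49.8% and 38.1% in those labelled WT. In cKO 2 the 95% Wilson interval ran from 26.9% to 34.0%, and in WT 3 it ran from 35.3% to 41.0%. Slc25a39 took 95.6% and 94.6% of the counts of Slc25a39 and Slc25a40 in the libraries labelled cKO, against 83.9% and 89.2% in those labelled WT. Slc25a36 took 92.1% and 88.1% of the counts of the pyrimidine nucleotide carriers in the libraries labelled cKO, against 95.6% and 94.6% in those labelled WT. Slc25a29 took 35.5% and 37.2% of the counts of Slc25a29 and Slc25a15 in the libraries labelled cKO, against 23.6% and 27.8% in those labelled WT. Mpc1 took 21.8% and 25.0% of the pyruvate carrier counts in the libraries labelled cKO, against 20.2% and 17.5% in those labelled WT. Slc25a4 took 69.3% and 69.0% of the counts of Slc25a4 and Slc25a5 in the libraries labelled cKO, against 66.0% and 70.4% in those labelled WT, so this share overlapped between labels. Partners differ in exon length, and the shares are not corrected for it. With the length correction the order of the pyruvate carriers turned round, with log2 fold changes of 0.86 for Mpc1 and 0.99 for Mpc2, in place of 1.12 and 0.69. Slc25a36 and Slc25a33 then stood at -0.21 and 0.10, in place of -0.71 and 0.40, and Slc25a39 and Slc25a40 at 0.86 and -0.10, in place of 1.04 and -0.51.

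**Figure D4:**
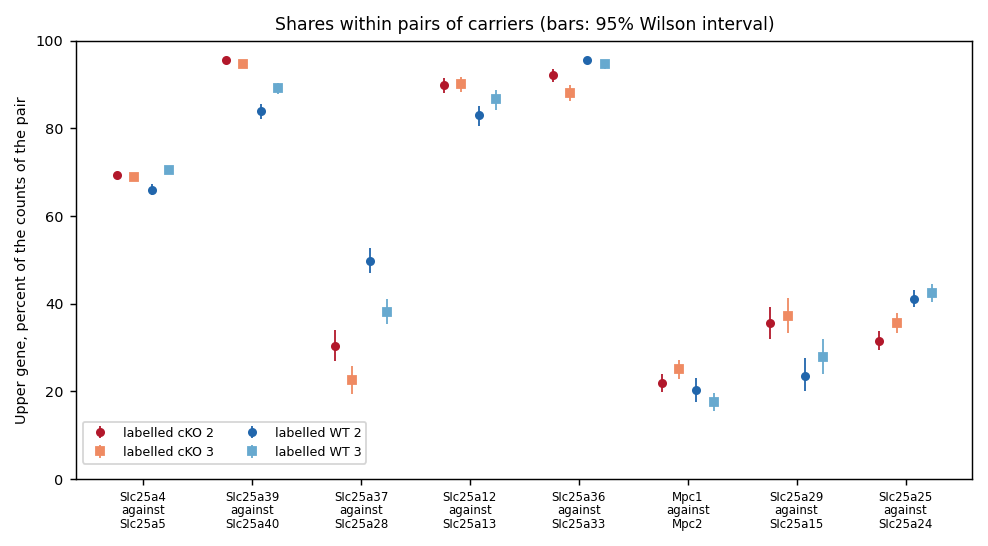
Percent of the counts of a pair of carriers taken by the first-named gene in each library, with 95% Wilson intervals, for 8 pairs (red labelled cKO, blue labelled WT). Slc25a37 against Slc25a28 shows 30.4% and 22.6% in the libraries labelled cKO and 49.8% and 38.1% in those labelled WT, while Slc25a4 against Slc25a5 overlaps between the labels.

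Genes that work with the carriers were read from lists of the same pathway. To set beside the counts called here and in the next paragraph, 14.1% of all genes tested were called higher and 14.3% lower. With the exon length correction these shares were 17.0% and 12.3%. Of the 10 genes of the TIM22 route, which inserts carrier proteins into the inner membrane, 5 rose and none fell, with a median log2 fold change of 0.76. Of these 5 the small chaperones Timm13 (1.39, adjusted p = 0.0189) and Timm8b (1.43, adjusted p = 0.0193) had the smallest p. Their exons are short, 1371 and 518 bases, and with the exon length correction they stood at 1.09 (adjusted p = 0.00862) and 0.94 (adjusted p = 0.0177). With that correction Timm10 lost its call (0.60, adjusted p = 0.0781) and Agk gained one (0.77, adjusted p = 0.0302). WT 3 stood above WT 2 by 0.94 for Timm13 and 0.96 for Timm8b on the log2 scale. Of the 3 outer membrane porins, through which substrates reach the carriers, Vdac1 (0.78, adjusted p = 0.0344) and Vdac2 (0.63, adjusted p = 0.0455) rose. In the calcium uniporter complex 2 of 7 rose, among them the regulator Smdt1 (1.14, adjusted p = 0.0168), while the pore Mcu itself was at 0.07. Without a length correction none of the 5 sideroflexins passed with edgeR or with DESeq2, and 0 had an unadjusted p under 0.05 in edgeR. With the exon length correction 2 passed, Sfxn1 at 0.89 (adjusted p = 0.00845) and Sfxn5 at 0.92 (adjusted p = 0.0284). Uncorrected, the serine carrier Sfxn1, which has the highest CPM of the 5, stood at 0.38 (adjusted p = 0.174), and Sfxn3, the highest per kilobase, at 0.06 (adjusted p = 0.837).

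Enzymes that hand substrates to the carriers moved in both directions. Of the 7 enzymes of the malate-aspartate and glycerol phosphate shuttles 4 rose (Mdh1, Mdh2, Got2 and Gpd1l) and none fell, with Gpd1l at 1.13 (adjusted p = 0.0153) and Got2 at 0.76 (adjusted p = 0.0262). Among 22 tested enzymes that use carried substrates 6 rose and 2 fell. Hk2, a hexokinase that docks on mitochondria and uses exported ATP, had 25.9 and 26.7 CPM in the libraries labelled cKO, against 71.8 and 55.2 CPM in those labelled WT, and fell by 1.27 on the log2 scale (adjusted p = 0.0139). Cpt2, which rebuilds acyl-CoA behind Slc25a20, rose by 0.97 (adjusted p = 0.0231). Of 11 tested genes of a list of other mitochondrial transporters and carrier relatives, Mtch1, a carrier relative of the outer membrane (1.40, adjusted p = 0.0153), and the sodium-calcium exchanger Slc8b1 (0.85, adjusted p = 0.0291) rose and Letm2 (-0.88, adjusted p = 0.0467) fell. With the length correction Letm2 stood at -0.58 (adjusted p = 0.146). None of the 5 genes of cardiolipin synthesis, which makes the lipid that carriers bind, passed with edgeR or DESeq2, and 2 had an unadjusted p under 0.05 in edgeR, Crls1 at 0.56 (adjusted p = 0.0774) and Ptpmt1 at 0.73 (adjusted p = 0.0889).

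Markers of the sorted cells were present under both labels. The summed level of 7 skeletal progenitor genes (Prrx1, Pdgfra, Pdgfrb, Twist1, Col1a1, Ly6a and Thy1) was 32166 and 29224 CPM in the libraries labelled cKO, against 32917 and 30946 CPM in those labelled WT, nearly all of it Col1a1, and 1 of the 7, Ly6a, rose. Prrx1, Pdgfra and Pdgfrb stood lower in both libraries labelled cKO (log2 fold changes -0.38, -0.54 and -0.43, none called). Prrx1 had 213 and 194 CPM there, against 265 and 264 CPM in those labelled WT. With library totals these genes passed (adjusted p = 0.041, 0.032 and 0.0376). With the exon length correction they stood at 0.21, 0.0 and -0.29, none called. The labels overlapped for Twist1, Col1a1 and Thy1. The endothelial genes were Pecam1, Cdh5, Tek, Kdr and Emcn, and none of them was called. They summed to 48.0 and 47.6 CPM in the libraries labelled cKO, against 57.4 and 49.2 CPM in those labelled WT. Most of each sum was Tek, which encodes the sorting marker Tie2. Tek had 34.6 and 28.8 CPM in the libraries labelled cKO, against 39.7 and 33.7 CPM in those labelled WT. Transcripts of this excluded marker were thus present under both labels. The 5 blood genes summed to 9.46 and 10.6 CPM in the libraries labelled cKO, against 10.7 and 13.2 CPM in those labelled WT, and of the 3 tested 1 rose and 1 fell. Lyz2, lysozyme of myeloid cells, had 2.67 and 4.21 CPM in the libraries labelled cKO, against 0.249 and 0.738 CPM in those labelled WT (2.78 on the log2 scale, adjusted p = 0.0167). The macrophage gene Cd68 had 4.79 and 4.32 CPM in the libraries labelled cKO, against 8.98 and 11.4 CPM in those labelled WT (-1.16, adjusted p = 0.0225). Ptprc, which encodes CD45, was at or below 0.168 CPM in every library. The part of muscle, erythroid, blood and fat transcripts in the levels of the carriers as a whole was not tested.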

How the data were processed

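Values are raw counts. The deposited table holds 1 column of counts for each of the 4 libraries, made by the authors from paired reads, with no normalization and no pooling. By the study's methods, reads were aligned to the mouse genome mm10 with STAR against a GENCODE annotation, and exon fragments of high mapping quality were counted with featureCounts. The strand setting is not named, and the library kit as described does not mark strand. Other tools appear in the submitters' processing notes (HTSeq 0.11.3, STAR 2.6.1b, DESeq2 1.28.1), beside the human build GRCh38.p12, and the table does not say which steps made it. Gene positions and exon lengths were taken from GENCODE vM21 (GRCm38), which holds 99.5% of the table's identifiers.

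Libraries were compared with the quasi-likelihood test of edgeR 4.0.16 (R 4.3.3) on the condition alone, after TMM scaling and filterByExpr at a minimum count of 10, and p-values were adjusted by Benjamini-Hochberg over all 16157 genes tested, with a threshold of 0.05. CPM were computed on TMM-scaled library sizes, with TMM factors of 0.892 and 0.926 for cKO 2 and 3 and 1.10 for both WT libraries. The length correction used a lowess of log2 CPM (pseudocount 0.5) on log10 exon length in each library, with a span of 0.3, as an offset. Alternatives were DESeq2 1.42.0 without and with ashr 2.2.63, other scalings and filters, the fold change limit of the study's methods, the replicate number as a block, and leaving out each library, where the lone library is assumed to vary like the other label. The code was tested on simulated data.

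The members, role groups, lists and tests were chosen with earlier results of these data known. Named with values are every called carrier, the most abundant carrier of each role group per kilobase, relatives of called carriers, Ecsit, and from each list up to 2 called genes with the smallest p or the most abundant gene where none was called. Further genes were named after their values were seen. Some genes that this rule takes are not reported here. Promoter windows are those of RefSeq (GRCm38.p6).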

Additional observations from a re-analysis of the deposited data

How the results depend on the processing

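Depth, 2 libraries a label and the scaling limit these results. The called carriers kept their direction under all settings tried, and none of those named in the text passed in all 18. Both counts of carriers, 12 higher and 3 lower, moved by no more than 1.5 times with size factors of DESeq2, with TMM computed without ribosomal protein and mitochondrial DNA genes, with DESeq2 and with the study's limit on the fold change. With no filter on low counts 6 were higher and 2 lower, and with at least 10 counts in every library 5 were lower. With library totals without TMM 5 were higher and 8 lower and the median was -0.04, and with the transcript length correction 6 were lower. Leaving out 1 library gave 1 to 17 higher and 1 to 7 lower. Over all the pathway lists, 21 of the other mitochondrial transport genes were higher and 3 lower. In the same fit 14.1% of all genes tested were called higher and 14.3% lower. With no filter 6 were higher and 1 lower, with library totals 6 were higher, with the exon length correction, alone or with either block, 1 was lower, and leaving out 1 library gave 2 to 37 higher and 0 to 6 lower. The calls of carriers fell without cKO 2 or cKO 3 and grew without WT 2 or WT 3, and the cause was not tested. The share of all genes called was computed only for the main fit and for the exon length correction.

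Carriers that were not called changed sign in a few settings. Slc25a46 stood at 0.02 with the exon length correction, at 0.01 with that and the replicate block, at 0.01 with that and the crossed block, and at 0.08 with the transcript length correction. Without 1 library Slc25a24 stood between -0.15 (without WT 3) and 0.02 (without WT 2). With library totals Slc25a44 stood at -0.07 and Slc25a17 at -0.00, and with the transcript length correction Slc25a17 stood at -0.04.

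The replicate numbers are shared by both labels, but no label says that they pair the libraries, and the correlation of deviations within a number was -0.101. With the replicate block 13 carriers were called higher and 4 lower, and with the crossed block (WT 2 with cKO 3, WT 3 with cKO 2) 13 were higher and 4 lower. The crossed block, library totals without TMM and the transcript length correction were chosen after seeing the data.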
